A study of Mus musculus with 1078 samples.

Results

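The cells described here are those that the depositors labelled Myeloid among single cells from GL261 gliomas, tumors of a mouse glioma cell line grown in the brains of mice. They were chosen by that label on the plates sorted for CD45, the surface protein of blood-derived and other immune cells, which gave 73 cells of the 240 on these plates, and 74 cells of 1078 in the whole series carry the label. The remaining cell came from a plate sorted for CD3 and is described apart. All 73 cells belong to a single deposited cluster, numbered 5. The mice received losartan (an angiotensin receptor blocker), an anti-PD1 antibody (which blocks a T cell checkpoint), losartan+anti-PD1, or control treatment. Each of the 4 treatments has 1 CD45-positive plate, processed by full-length Smart-seq2, and no animal is named in the sources used here. A difference between treatments can therefore not be told apart from a difference between plates or animals, and no test was run. The myeloid label fell on 34 cells of 71 on the losartan plate, 3 of 26 on the anti-PD1 plate, 11 of 73 on the losartan+anti-PD1 plate and 25 of 70 on the control plate.

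Dendritic cells take up antigen, carry it to lymph nodes and show it to T cells. Type 1 dendritic cells are known for presenting antigen from dead cells to CD8+ T cells, type 2 cells for activating CD4+ T cells, and plasmacytoid dendritic cells for making type I interferon. Any of the conventional cells can mature, a program in which the chemokine receptor Ccr7 guides them toward lymph nodes and the actin-bundling protein Fscn1 reshapes them. Microglia are the resident macrophages of the brain and do not depend on the receptor Flt3, the growth factor receptor of dendritic cells.

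Values are expected counts scaled to 100000 per cell, written TP100K. Since these counts are not divided by transcript length, levels are compared between cells and not between genes. Shares of cells carry exact Clopper-Pearson 95% intervals, which cover counting error over cells only and take each cell as independent. That independence was not tested. Myeloid-labelled cells 1 and 30 of the losartan plate had near-parallel values, with Btla at 129 and 89.9 and Mgl2 at 164 and 127 TP100K. Their Kmo was 167 and 138 and their Csf1r 93.8 and 73.1 TP100K, and both are counted below as type 2. The median total was 433096 expected counts in myeloid-labelled cells (range 72487 to 1248211), against 245176 in microglia-labelled cells, and the median number of genes detected was 4055 against 3018. Of the 79 microglia-labelled cells, 51 were in deposited cluster 6 and 28 in cluster 11, and the cells of cluster 11 carried neutrophil genes: Il1b averaged 2031 TP100K there and 149 TP100K in cluster 6. The myeloid label is itself the product of clustering these cells. Its comparison with the microglia label is therefore a description.

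The 6 genes that mark the label in the series were higher in these cells than in microglia-labelled cells. Since 73 of the 74 cells with the label are these cells, this describes the label and does not test it. Flt3 was above 0 in 61 of 73 myeloid-labelled cells and 3 of 79 microglia-labelled cells. Its mean was 27.8 TP100K on the losartan plate, 23 on the anti-PD1 plate, 51 on the losartan+anti-PD1 plate and 33.6 on the control plate, so it was present in myeloid-labelled cells of every treatment. The highest microglial mean on any plate was 1.03 TP100K. Kmo, an enzyme of tryptophan breakdown through kynurenine, averaged 67.1 TP100K in myeloid-labelled cells and 1.01 in microglia-labelled cells. Itgae, the integrin chain CD103 of migratory type 1 dendritic cells and of some T cells, averaged 50.3 against 0.428 TP100K. It was found in 56.2% of the myeloid-labelled cells and varied by plate, with 61.8%, 33.3%, 18.2% and 68% of cells on the losartan, anti-PD1, losartan+anti-PD1 and control plates.

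The remaining label markers were also held by other cells, at lower levels. Ifi205, a gene induced by interferon, averaged 138 TP100K in myeloid-labelled and 12.8 in microglia-labelled cells. Plbd1, a lysosomal phospholipase-like protein, averaged 136 against 41.7 TP100K and Naaa, a lysosomal amidase, 47.3 against 10.2 TP100K. Naaa was above 0 in 47.2% of NK-labelled cells too, with a mean of 1.98 TP100K, so its detection alone did not mark a dendritic cell.

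**Figure D1:**
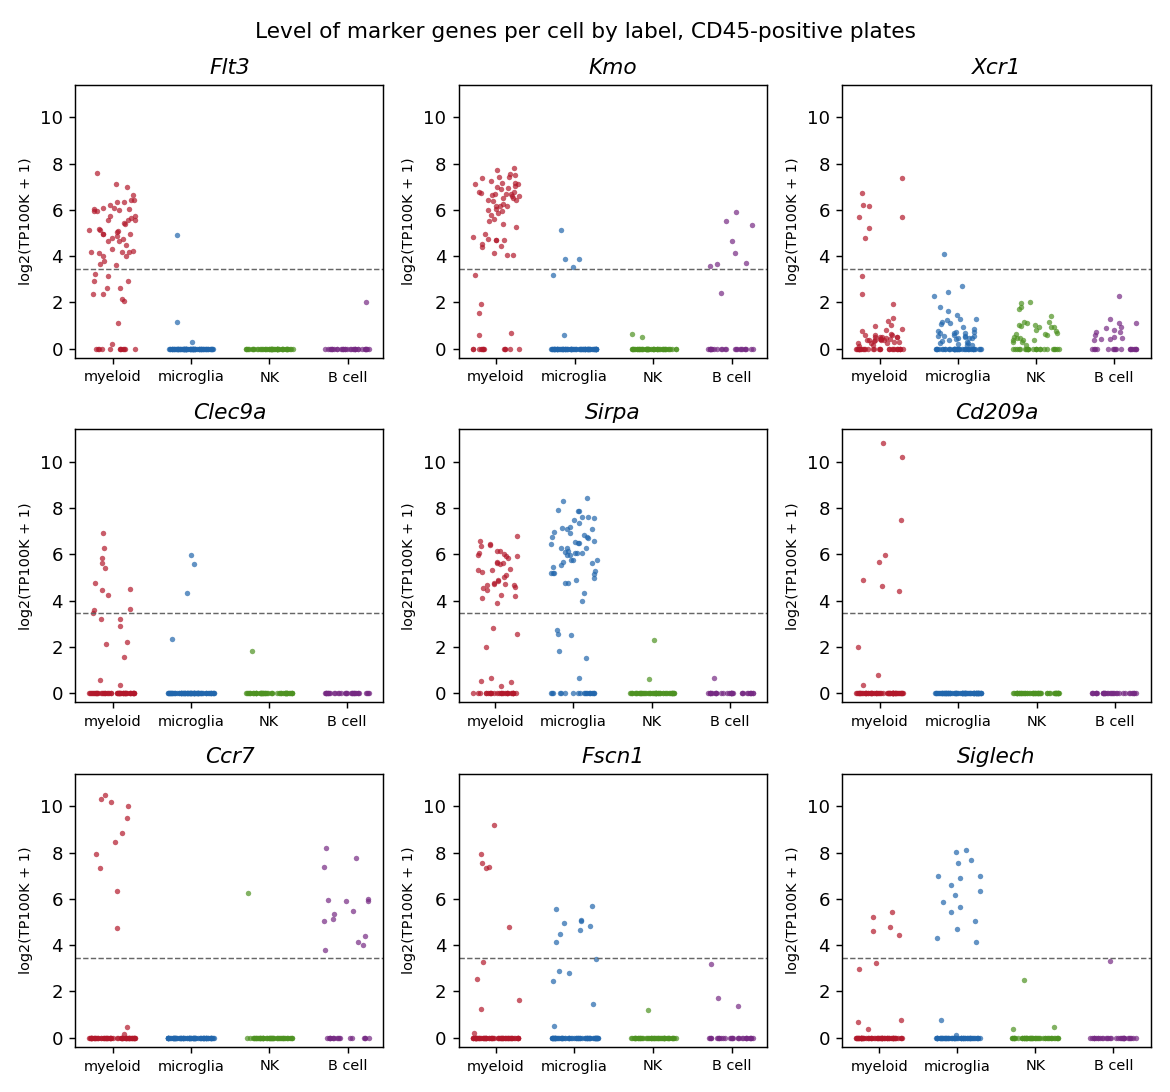
Level of 9 genes in each cell of the CD45-positive plates, as log2(TP100K + 1), for 73 myeloid-, 79 microglia-, 53 NK- and 33 B cell-labelled cells; each point is a cell and the dashed line is 10 TP100K. Flt3 and Kmo lie mostly above the line in myeloid-labelled cells, while Xcr1 lies just above 0 in all 4 labels and above the line in 8 myeloid-labelled cells and 1 microglia-labelled cell.

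A general dendritic list, which shares Flt3 with the label markers, behaved alike. A gene was counted as past the fold when its log2 ratio of means, with 1 TP100K added, was at least 1 in size and kept its sign on the 3 plates with at least 10 cells of both labels. Of 6739 genes above 0 in at least 25% of cells of either label, 9.56% were past the fold higher in myeloid-labelled cells and 7.27% were lower. The median over these genes was a log2 ratio of 0.12. All 6 label markers and 6 of 7 genes of the general dendritic list were higher past the fold. These were Flt3, the dendritic transcription factor Zbtb46 (11.8 against 0.276 TP100K), the peptidase Dpp4 or CD26 (31 against 1.9), the growth factor receptor Kit (21.6 against 1.07), the inhibitory receptor Btla (27.4 against 0.424) and the transcription factor Bcl11a (6.88 against 0.27). The integrin Itgax, or CD11c, missed the limit at 57.3 against 29.2 TP100K. At least one of Flt3 and Zbtb46 exceeded 10 TP100K in 57 of 73 myeloid-labelled cells and in 2 of 79 microglia-labelled cells.

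The 10 highest ratios in this comparison were those of Itgae (log2 5.17), Kmo (5.08), Flt3 (4.62), Btla (4.32), Klrd1 (4.13), Gnb4 (3.69), Klrk1 (3.64), Ctnnd2 (3.55), 1600029D21Rik (3.52) and Dpp4 (3.46). Ctnnd2 was at 0 in all microglia-labelled cells, so its ratio depends on the 1 TP100K added. Klrd1 and Klrk1 encode the lectin receptors CD94 and NKG2D of NK cells. Klrd1 was above 0 in 68.5% of myeloid-labelled and 88.7% of NK-labelled cells, but the sum of the 10-gene NK list had a median of 18.1 TP100K per myeloid-labelled cell against 1923 per NK-labelled cell. The 10 lowest ratios were those of Apoe (-7.22), Cxcl2 (-7.22), Irg1 (-6.84), Clec4e (-6.27), S100a9 (-6.20), Hp (-5.93), C5ar1 (-5.90), S100a8 (-5.62), P2ry12 (-5.61) and Hdc (-5.51). They join genes of macrophages and microglia, such as the lipid carrier Apoe and the purinergic receptor P2ry12, with genes of neutrophils, such as S100a8 and S100a9. Against microglia-labelled cells of cluster 6 alone, S100a9, S100a8 and Hdc turned to log2 ratios of 0.49, 0.55 and 0.27, so these 3 rested on cluster 11.

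Genes that mark microglia were found in fewer myeloid-labelled cells. Tmem119 was above 0 in 1.37% of myeloid-labelled and 27.8% of microglia-labelled cells, P2ry12 in 5.48% and 44.3%, and Trem2 in 5.48% and 49.4%. Of 17 microglia genes, 9 were past the fold lower and none higher, and the summed list had a median of 51.1 TP100K per cell (highest 750.5) against 438. Csf1r was above 10 TP100K in 33 of 73 myeloid-labelled cells. Of 19 genes of monocytes and macrophages, 9 were lower and 1, Plac8, was higher at 111 against 31.4 TP100K. The Fc receptor Fcgr1, or CD64, which is widely used to mark macrophages, averaged 17.2 TP100K in myeloid-labelled and 17.6 in microglia-labelled cells and was above 0 in 67.1% of the myeloid-labelled cells. The 10-gene T cell list summed to at most 1.02 TP100K in any myeloid-labelled cell, with 7 of its genes at 0 throughout.

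Genes of class II presentation were higher in myeloid-labelled cells. The class II molecule H2-Ab1 was above 10 TP100K in every myeloid-labelled cell and averaged 1565 TP100K, against 467 in microglia-labelled cells, which divide into 721 in cluster 6 and 5.03 in cluster 11. The summed class II list had a median of 5977 TP100K per myeloid-labelled cell, against 832 over microglia-labelled cells and 2605 over those of cluster 6 alone. Of 12 genes of class II presentation, 11 were past the fold higher and none lower. H2-DMb2, a chain of the H2-DM molecule that loads peptide, averaged 35.1 against 3.38 TP100K, and H2-Oa, a chain of the H2-O molecule that restrains H2-DM, 45.9 against 5.3. Ciita, the factor that switches on class II genes, averaged 62.2 against 9.86 TP100K. The class I list had 5 of 14 genes higher, among them the peptide transporter Tap1 (68.4 against 24.3 TP100K). Of 10 genes of cross-presentation 1 was higher and none lower, with a median log2 ratio of -0.56. The lysosomal proteases Ctsd and Ctsb went the other way, at 12.6 against 411 and 51.5 against 309 TP100K. Of 16 genes of lysosome and scavenging 14 passed the filter, with 2 higher and 7 lower. The summed list had a median of 1321 TP100K per myeloid-labelled cell against 1171 per microglia-labelled cell. In the kynurenine list, Kmo, Kynu, Haao and Ahr were higher, 4 of 12 genes.

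Which dendritic subsets the label holds depended on how much of a transcript was asked for. With a marker counted wherever it was above 0, 51 of 73 cells (69.9%, 58 to 80.1) met the type 1 rule of Xcr1 or Clec9a, 48 (65.8%, 53.7 to 76.5) the type 2 rule of Sirpa or Cd209a, 7 (9.59%, 3.94 to 18.8) the mature rule of Ccr7 with Fscn1, and 10 (13.7%, 6.77 to 23.8) the plasmacytoid rule of Siglech. Microglia-labelled cells met the type 1 rule in 51.9%, NK-labelled cells in 56.6% and B cell-labelled cells in 45.5%. NK and B cells should lack both genes, so a share of this size above 0 was not read as expression.

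Most of the cells that met the type 1 rule above 0 did so by Xcr1, the receptor through which type 1 cells follow the chemokine Xcl1. It was above 0 in 45 myeloid-labelled cells, but in 37 of them at or under 10 TP100K, and the median of its values above 0 was 2.08 expected counts in myeloid-labelled and 1.8 in NK-labelled cells. Of its values above 0, high ones included, 1.55% were whole numbers, against 92% for Clec9a, the receptor by which type 1 cells sense dead cells, and 73.8% over all genes. The source of the small Xcr1 values was not tested. No NK- or B cell-labelled cell had more than 3.82 TP100K of Xcr1. No B cell-labelled and 1 NK-labelled cell had any Clec9a.

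With 10 TP100K as the limit, a value chosen with these data in view, the type 1 and mature rules were met by a larger share of myeloid- than of microglia-labelled cells, and the type 2 and plasmacytoid rules by a smaller one. The type 1 rule was met by 12 of 73 myeloid-labelled cells (16.4%, 8.79 to 27), against 4 of 79 microglia-labelled cells (5.06%, 1.4 to 12.5) and no NK- or B cell-labelled cell. The type 2 rule was met by 40 cells (54.8%, 42.7 to 66.5), but also by 67.1% of microglia-labelled cells, since Sirpa is a gene of macrophages too. The mature rule was met by 6 cells (8.22%, 3.08 to 17) and by 0 of 79 microglia-labelled cells, for which the exact upper bound is 4.56%. The plasmacytoid rule was met by 5 cells (6.85%, 2.26 to 15.3) and by 17 microglia-labelled cells (21.5%), of which 16 were among the 30 on the losartan plate and 1 was on the anti-PD1 plate. At depths made equal by drawing 50000 reads per cell, shares above 0 were 35.6%, 60.3%, 9.59% and 11% for type 1, type 2, mature and plasmacytoid in myeloid-labelled cells, against 19.7%, 75%, 0% and 23.7% in microglia-labelled cells.

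**Figure D2:**
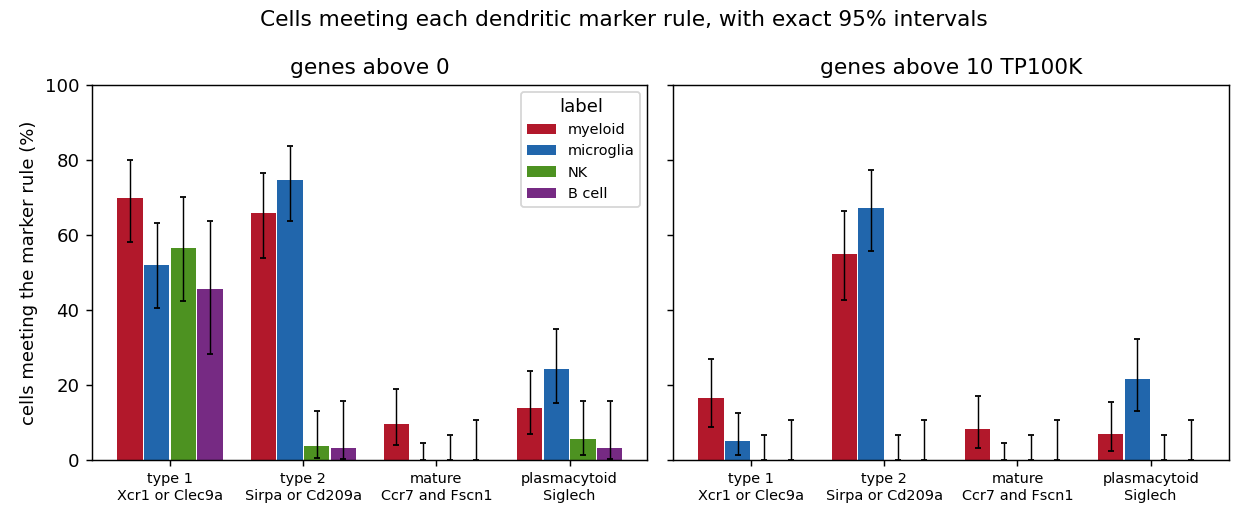
Share of cells (percent) that met each of 4 marker rules by label, with genes counted above 0 (left) and above 10 TP100K (right); bars are shares and lines exact 95% intervals over cells. The type 1 bars of the 4 labels lie between 45.5% and 69.9% on the left, and on the right at 16.4% for myeloid- and 5.06% for microglia-labelled cells and 0 for the other labels.

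Fewer cells met more than one rule at this limit. Above 0, 41 of 73 cells met at least 2 rules and 33 were both type 1 and type 2. Above 10 TP100K this held for 5 cells, of which 4 met the type 2 and plasmacytoid rules and 1 the type 1 and type 2 rules. Assigned in the order mature, type 1, type 2 and plasmacytoid, the 73 cells divided into 6, 12, 39 and 1, with 15 cells that met no rule. Sirpa lay between 5 and 20 TP100K in 5 cells and Clec9a in 7, and these cells lie nearest to the limit.

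In the 12 type 1 cells, Clec9a was above the limit in all 12 and Xcr1 in 8 of them, with values up to 122 and 166 TP100K, and 0 of 79 microglia-labelled cells had both genes above it. Type 1 too names a rule, which 4 of the 12 met by Clec9a alone. Among these 4, a losartan-plate cell with Clec9a at 10 TP100K had Sirpa at 47.7, Csf1r at 50.8 and no Irf8. The only type 1 cell of the losartan+anti-PD1 plate, with Clec9a at 11.2, had Ccr2 at 103, Csf1r at 42 and no Flt3. The others of the 4 had no Sirpa or Csf1r. Naaa ranged from 1.84 to 367 TP100K with a median of 149 in type 1 cells, against a median of 18.6 in type 2 cells and 0 in each of the 6 mature cells. Wdfy4, which type 1 cells need to present antigen from dead cells, was above 10 TP100K in all 12 at a mean of 97.4 TP100K, against 34.2 in type 2 cells and 0 in mature cells. Snx22, a sorting nexin, averaged 49.7 TP100K in type 1 and 2.7 in type 2 cells. Gcsam, a gene better known in germinal center B cells, averaged 19.5 TP100K in type 1 and 0.0982 in type 2 cells, and the 5 myeloid-labelled cells with Gcsam above 10 TP100K were all type 1.

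The sensors and regulators of type 1 cells were held by fewer of the 12 cells. Irf8, the transcription factor on which type 1 cells depend, was above 10 TP100K in 10 of 12, at a mean of 145 TP100K, but was higher still in mature cells at 205, and averaged 16.9 in type 2 cells. Batf3, its partner, averaged 7.18 TP100K in type 1 and 2.99 in type 2 cells and was above 0 in 7 of 12. Tlr3, the sensor of double-stranded RNA, was above 0 in 6 of 12 type 1 and 5 of 39 type 2 cells, and Tlr11 in 4 of 12 and 1 of 39. Itgae was above 10 TP100K in 10 of 12 type 1 cells, and also in 17 of 39 type 2 cells and 7 of the 15 cells of no kind, so it did not separate the subsets. Cadm1, often used to sort type 1 cells, was found in 3 of 12.

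Against the other 61 myeloid-labelled cells, 5.68% of 7953 genes were past the fold higher in type 1 cells and 10.3% lower, here on the 2 plates with at least 3 cells of both kinds. Of the 15 genes of the type 1 list that were not used to divide the cells and have a row, 14 passed the filter and 11 were higher and none lower. The median log2 ratio was 1.66 over the 15 genes and -0.02 over all genes. The 5 highest ratios were those of Gcsam (log2 4.21), A530099J19Rik (4.17), Snx22 (3.58), 5430435G22Rik (3.48) and the scavenger receptor Cd36 (3.38), which was above 0 in 8 of 12 type 1 cells and 2 of the other 61. The 5 lowest were those of Cd69 (-4.99), Il4i1 (-4.88), Ccl5 (-4.83), Tmem176b (-4.00) and Ifit1 (-3.85). Of 25 genes of the mature list 11 were lower and none higher, and Ccr7 was at 0 in all 12 cells. The other 61 cells include the 6 mature ones, in which Il4i1 ran from 29.7 to 472 TP100K and Ccl5 up to 475. Outside the mature cells these genes reached 329 and 859 TP100K. The part of the mature cells in these lower values was not tested. Of 13 genes of the type 2 list 5 were lower and 1, Clec12a, was higher. Without the losartan plate 933 genes were higher and 1391 lower, against 452 and 822 with all plates, and without the control plate 844 were higher, each with fewer plates on which the sign had to hold.

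Divided instead by any Xcr1 or Clec9a above 0, 51 cells against 22, the sign had to hold on 3 plates in place of 2, so the counts of the divisions cannot be set against each other. Then 3.65% of 7255 genes were past the fold higher and 1.89% lower, and 3 of the 15 other type 1 genes were higher. The 5 highest ratios were those of Gm14446 (log2 2.72), P2ry14 (2.58), Oas3 (2.52), Gcsam (2.51) and I830012O16Rik (2.28), and the 5 lowest those of Anxa3 (-3.05), Acss1 (-2.52), LOC100038947 (-2.31), Alg2 (-2.09) and 4930523C07Rik (-2.07). Gcsam was the gene shared with the 5 highest of the stricter division. It was at 0 in the 22 other cells, so its ratio here depends on the 1 TP100K added. Under the stricter division Gm14446 turned to -2.73 and I830012O16Rik to -0.13. With 265 genes higher and 137 lower in all, the counts were 633 and 537 without the losartan plate, 559 and 305 without the control plate, and 426 and 271 without the losartan+anti-PD1 plate.

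**Figure D3:**
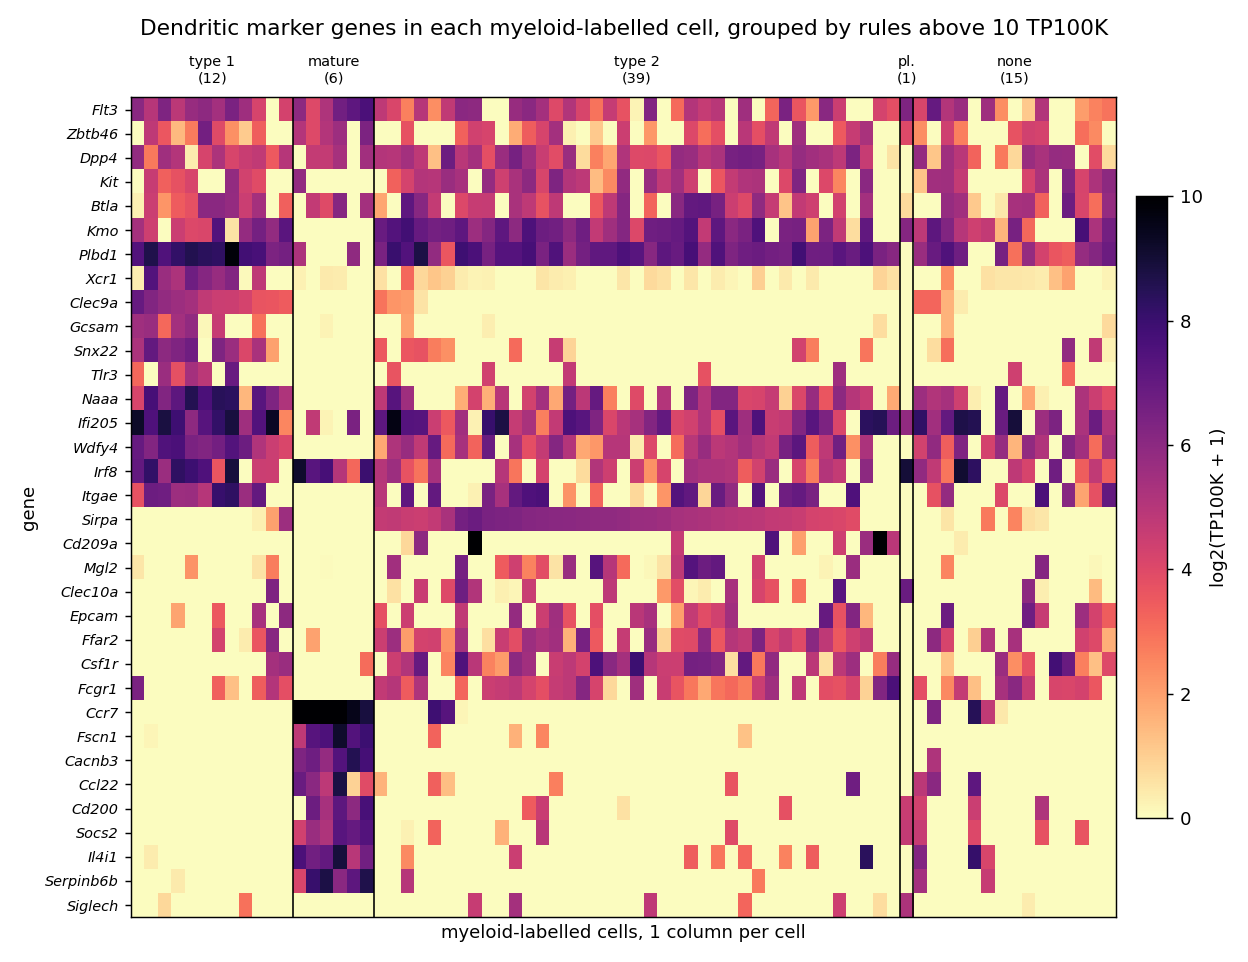
Level of 34 marker genes (rows) in the 73 myeloid-labelled cells (columns) as log2(TP100K + 1), grouped by the rules above 10 TP100K into type 1 (12 cells), mature (6), type 2 (39), plasmacytoid (pl., 1) and none (15). Clec9a, Gcsam and Snx22 are highest in the type 1 block and Ccr7, Fscn1, Cacnb3 and Serpinb6b in the mature block, while Kmo, Plbd1 and Itgae run across type 1 and type 2 cells and Kmo and Itgae are 0 in mature cells.

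Type 2 here names a rule and not a settled cell type, since its main gene is shared with microglia. The 39 cells rested on Sirpa, the receptor for the "do not eat me" protein CD47, which was above the limit in 36 of them, the other 3 having Cd209a alone. Kmo was above 10 TP100K in 34 of 39, Plbd1 in all 39 and Flt3 in 25. Genes used to mark macrophages or type 1 cells were common as well, with Csf1r above 10 TP100K in 26 of 39, Fcgr1 in 23 and Itgae in 17. Cd209a, the mouse counterpart of DC-SIGN, was found in 11 myeloid-labelled cells and in 0 microglia-, NK- or B cell-labelled cells. It was uneven, above 10 TP100K in 8 cells with values from 20.5 to 1808 TP100K. Of these 8 cells, 7 also had the monocyte receptor Ccr2 above 10 TP100K, 6 had Fcgr1 and 6 had Csf1r, the receptor for the macrophage growth factor.

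Other genes known from type 2 cells were spread through this group. Mgl2, a lectin of dermal type 2 cells, averaged 23.8 TP100K in type 2 cells and 0.843 in type 1 cells, and was above 10 TP100K in 14 of 39 and 0 of 12. Ffar2, a receptor for short-chain fatty acids, was above 10 TP100K in 29 of 39 type 2 and 3 of 12 type 1 cells. Irf4, the transcription factor linked with type 2 cells, was above 0 in 20 of 39 and 1 of 12 but low, at means of 4.18 and 0.336 TP100K. Csf1r averaged 46.1 TP100K in type 2 and 7.73 in type 1 cells, against 319 in microglia of cluster 6. Ctss, the protease that trims the class II invariant chain, averaged 331 TP100K in type 2, 151 in type 1 and 123 in mature cells. The adhesion molecule Epcam, by contrast, was above 10 TP100K in 17 of 39 type 2, 3 of 12 type 1 and 5 of the 15 cells of no kind.

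The 6 mature cells were chosen by Ccr7 and Fscn1 and also held most other genes of the mature list. Ccr7 ranged from 462 to 1427 TP100K and Fscn1 from 26.7 to 576 TP100K in these cells. Cacnb3, a calcium channel subunit of mature dendritic cells, ranged from 55.1 to 368 TP100K and was above 0 in 1 of the 67 other myeloid-labelled cells. Of the 23 other genes of the mature list, 21 passed the filter, 18 were past the fold higher and 1, Ccl17, lower, beside 15.6% of 7355 genes higher and 33.1% lower. Since 1 plate held 4 of the 6 cells, the sign was not required to hold within plates here. The median log2 ratio was 2.72 over the 23 genes and -0.33 over all genes.

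Of 18 costimulation and checkpoint ligands 7 were past the fold higher in mature cells and 3 lower, of 17 chemokines 4 higher and 6 lower, and of 10 chemokine receptors other than Ccr7 1 higher and 5 lower. Ccl22, a chemokine that draws regulatory T cells, averaged 109 TP100K in mature cells and 5.46 in the other myeloid-labelled cells. The checkpoint ligands Cd274 (PD-L1) and Pdcd1lg2 (PD-L2) averaged 122 against 23.8 and 58.4 against 12.2 TP100K. In the mature list, Relb, a factor of the NF-kappaB family that drives maturation, averaged 110.3 against 11.6 and Socs2 92.1 against 2.12 TP100K. Outside that list, Il15ra, which presents the cytokine IL-15, averaged 49.3 against 2 TP100K. The costimulatory molecule Cd86 was alike, at 30.6 against 32.8 TP100K. Flt3 was present in all 6 at a mean of 90.7 against 27.9 TP100K, and Zbtb46 in 5 of 6.

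Many genes that filled the rest of the label were absent from the mature cells. Kmo, Naaa, Itgae, Itgax, Wdfy4 and Sirpa were at 0 in all 6. H2-Ab1 ranged from 10.9 to 964 TP100K with a mean of 347, against 1675 in the other cells, and 9 of 12 genes of class II presentation were past the fold lower and none higher. B2m, the light chain of class I, averaged 642 against 415 TP100K. The 5 highest ratios were those of Cacnb3 (log2 6.78), Serpinb6b (6.45), Ramp3 (5.84), Tspan3 (5.51) and Tbc1d4 (5.09), and the 5 lowest those of Fgl2 (-6.56), Ly6a (-6.55), Sla (-6.46), Gpr171 (-6.22) and Kmo (-6.21). These last 5 were at 0 in all mature cells, so their ratios depend on the 1 TP100K added. Of 6 label markers, 5 were past the fold lower in mature cells and 1, Flt3, was higher. The median number of genes detected was 2914 in mature cells, against 4186 in type 1 and 4229 in type 2 cells, and the part of this in the lower values was not tested.

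A further 5 cells had Ccr7 above 10 TP100K with Fscn1 at or under that limit, at 8.7 TP100K in 1 of them and 0 in the others. They fell among the type 2 cells (2) and the cells of no kind (3), with Ccr7 up to 346 TP100K. Of the 11 cells with Ccr7 above the limit, 8 also had Il4i1, an amino acid oxidase of mature cells, 7 had Ccl22 and 7 had Cacnb3. Ccr7 itself was above 0 in 45.5% of B cell-labelled cells, where it is a normal lymphocyte gene, and in no microglia-labelled cell.

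Siglech, the marker of plasmacytoid cells, averaged 2.27 TP100K in myeloid-labelled and 22.7 in microglia-labelled cells, where it is a known microglial gene, and no myeloid-labelled cell had more than 41.5 TP100K. The log2 ratio was -2.86, and it turned to 1.27 without the losartan plate, where microglia-labelled cells averaged 59.1 TP100K. Klk1 and Ly6d were at 0 in all 73 cells. A limit of 3 cells over the number of cells, used here in place of the exact interval, allows a share of up to 4.11% with either. Tcf4, the factor that sets the plasmacytoid fate, was above 0 in 69.9% of cells, and Bst2 in 86.3%, but both were found in type 1, type 2 and mature cells and in B cell-labelled cells (72.7% and 48.5%). Siglech and Tcf4 were both above 10 TP100K in 3 cells. The 1 cell assigned as plasmacytoid, from the losartan+anti-PD1 plate, had 36.6 TP100K of Siglech, 72.5 of Tcf4, 492 of Irf8 and 80.4 of Flt3. In this cell 11 of the 16 plasmacytoid genes were above 0 and summed to 561 TP100K, against a median of 59.5 TP100K over all myeloid-labelled cells. The highest sum, 595 TP100K, was in a type 1 cell, so the sum did not single out the plasmacytoid cell.

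The 15 cells of no kind held the general markers in part. In 8 of them Flt3 or Zbtb46 was above 10 TP100K, and the summed general dendritic list had a median of 129 TP100K, against 196 over all myeloid-labelled cells. Kmo was above 0 in 12 and Plbd1 in 13, and H2-Ab1 ranged from 90.1 to 2242 TP100K. Their median total was 470826 expected counts and their median number of genes 3561. Mki67, a gene of dividing cells, was above 10 TP100K in 8 myeloid-labelled cells, 6 of them type 2. Timd4, a receptor for dying cells, was found in 15 myeloid-labelled cells of every kind but the plasmacytoid one and in 0 microglia-, NK- or B cell-labelled cells.

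Among the signals that dendritic cells receive, Xcl1 was at 0 in myeloid-labelled cells and above 0 in 49.1% of NK-labelled cells, and Flt3l, the ligand of Flt3, was above 0 in 21.9% of myeloid-labelled and 49.1% of NK-labelled cells. Of the receptors on which losartan acts, Agtr1a was at 0 in all 73 myeloid-labelled cells (up to 4.11% of cells by the limit of 3 cells). Of the 13 genes of the renin-angiotensin list, 9 were at 0 in all of them, and the renin receptor Atp6ap2 was above 0 in 86.3%.

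By plate, the type 1 rule above 10 TP100K was met by 5 of 34 cells on the losartan plate (14.7%, 4.95 to 31.1), 1 of 3 on the anti-PD1 plate, 1 of 11 on the losartan+anti-PD1 plate (9.09%, 0.23 to 41.3) and 5 of 25 on the control plate (20%, 6.83 to 40.7). The intervals overlapped throughout. The type 2 rule was met by 24 of 34 cells (70.6%, 52.5 to 84.9), 1 of 3, 4 of 11 (36.4%, 10.9 to 69.2) and 11 of 25 (44%, 24.4 to 65.1) on the same plates. The mature rule was met by 1 of 34 cells (2.94%, 0.0744 to 15.3), 0 of 3, 4 of 11 (36.4%, 10.9 to 69.2) and 1 of 25 (4%, 0.101 to 20.4). The mature cells thus came mostly from the losartan+anti-PD1 plate. Without that plate the mature share over the others was 2 of 62 cells, 3.23% (0.393 to 11.2), and above 0 it was 4.84%. The losartan+anti-PD1 plate also had the lowest median number of genes in myeloid-labelled cells, 3189 against 3859 on the control plate, whose part in this was not tested.

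**Figure D4:**
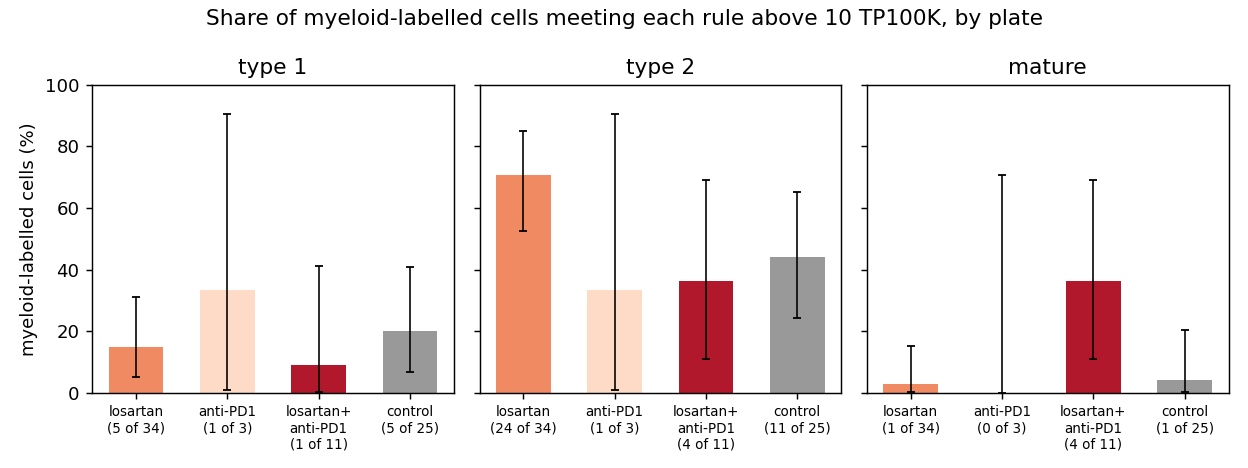
Share of myeloid-labelled cells (percent) that met the type 1, type 2 and mature rules above 10 TP100K on the losartan, anti-PD1, losartan+anti-PD1 and control plates, with cell numbers under each bar; bars are shares and lines exact 95% intervals over cells. The mature share is 36.4% on the losartan+anti-PD1 plate and at most 4% on the others, and every interval of the anti-PD1 plate, with 3 cells, spans most of the axis.

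Between the losartan and control plates, many interferon-induced genes had lower means with losartan. Of 34 such genes, 10 were past the fold lower on the losartan plate and 2, the chemokines Cxcl9 and Cxcl10, higher, beside 3.11% of 7460 genes lower and 10.7% higher, with a median log2 ratio of 0.17 over all genes and -0.30 over the list. Irf7, the regulator that amplifies the interferon response, averaged 21.6 TP100K on the losartan plate, 25.1 on the anti-PD1 plate, 26.5 on the losartan+anti-PD1 plate and 71.3 on the control plate. Ifit2 averaged 18.5, 0.0933, 32.7 and 68.5 TP100K on the same plates. Its control mean rested largely on a few cells, at 492, 394, 224, 192 and 176 TP100K. The other plate with losartan went the other way for the list as a whole. The summed level of the 34 genes had a median of 385 TP100K per cell on the losartan plate, 287 on the anti-PD1 plate, 1249 on the losartan+anti-PD1 plate and 511 on the control plate. Ifit2 was above 0 in 50% of myeloid-labelled cells on the losartan plate and 60% on the control plate.

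The 5 lowest ratios of losartan over control were those of I830012O16Rik (log2 -3.59), Rsad2 (-3.51), Oasl1 (-3.22), Mx1 (-2.50) and Ildr1 (-2.39), of which Rsad2, Oasl1 and Mx1 are antiviral genes of the interferon list. The 5 highest were those of Tubgcp5 (3.30), Ero1l (2.97), Ier3 (2.86), Ccl5 (2.74) and Mapk8 (2.67). Ero1l was at 0 on the control plate, so its ratio depends on the 1 TP100K added. Ccl5, a T cell-attracting chemokine, was above 0 in 44.1% of cells on the losartan plate and 12% on the control plate. Most of these losartan values were under 10 TP100K, from 0.426 to 6.49, so the shares above 0 include trace values. The means of Ccl5 were 32.9 and 4.08 TP100K. The highest losartan cell had 859 TP100K and the next 107, so the size of the Ccl5 ratio rests largely on 1 cell. The cytokine Tnf was above 0 in 47.1% against 8% and the DNA sensor Tlr9 in 17.6% against 60%. Some of the losartan Tnf values were small too, down to 0.984 TP100K. Flt3 was at 27.8 against 33.6 TP100K, which is short of the fold. Rsad2 averaged 1.19 TP100K on the losartan plate against 23.9 on the control plate, and was above 0 in 11.8% against 32% of cells. Its control mean rested almost wholly on cells at 156, 148, 147, 109 and 36 TP100K. Myeloid-labelled cells had a median of 4591 genes detected on the losartan plate and 3859 on the control plate. The part of this, and of the larger type 2 share on the losartan plate, in these ratios and shares was not tested.

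**Figure D5:**
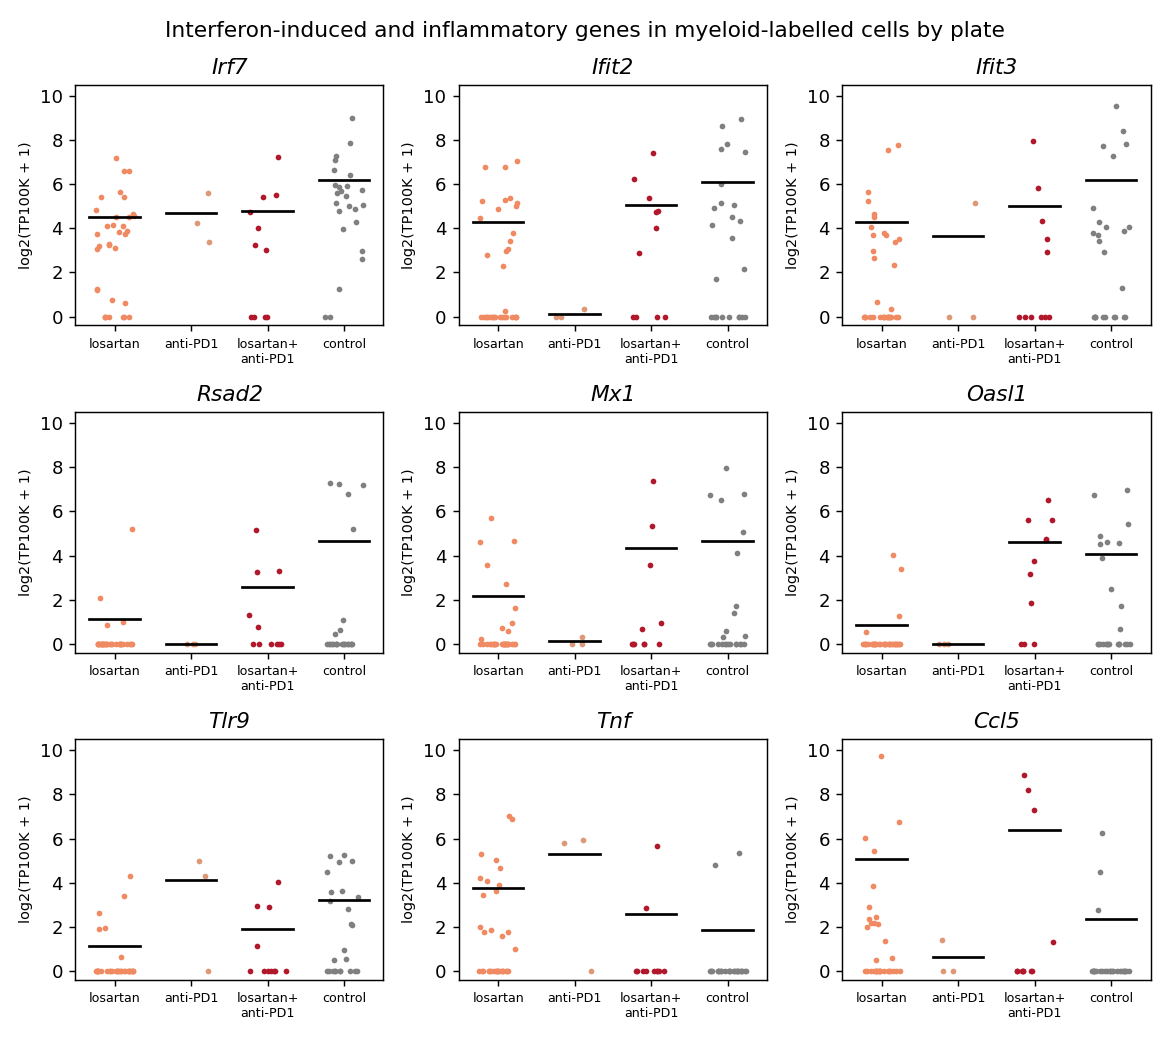
Level of 9 genes in each myeloid-labelled cell as log2(TP100K + 1), on the losartan (34 cells), anti-PD1 (3), losartan+anti-PD1 (11) and control (25) plates; each point is a cell and each bar the log2 of the plate mean plus 1. Irf7 averages 21.6 TP100K on the losartan plate and 71.3 on the control plate, while for Tnf points above 0 are 47.1% of cells on the losartan plate and 8% on the control plate.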

How the data were processed

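The table holds 1 column per cell, from Smart-seq2 libraries. The paper describes TPM, which have a fixed sum per cell. The values the authors deposited for the other plates were taken to be TPM and those for the CD45-positive plates to be expected counts, a unit inferred from the values: 73.8% of those above 0 were whole and totals per myeloid-labelled cell ran from 72487 to 1248211. The submitters' processing notes name RSEM 1.2.8, Bowtie, TopHat and the build mm10, without their order, and the paper gives another RSEM version. Cell labels and clusters are the depositors'. From the expected counts each cell was scaled to 100000, and the TPM were used for 1 cell only. A gene entered a comparison when above 0 in at least 25% of cells of either group, and ratios are log2 of means plus 1 TP100K. Named are the label markers, members of the gene lists described, and the 10 (myeloid over microglia) or 5 (other comparisons) highest and lowest ratios. The mature comparison, the type 1 comparison at 10 TP100K, the limit of 1 TP100K, both markers above 10 TP100K, microglia of cluster 6 only, and the cells or plate left out at 10 TP100K were added after seeing the data. The members and the 34 gene lists were chosen with earlier results of these data known. No doublet caller was run. Scripts ran under Python 3.11.15 with SciPy 1.17.1 (intervals), matplotlib 3.10.9 (figures), pandas 2.3.3 and, for arithmetic, NumPy 2.4.6. The counting of genes past the fold was tested on simulated data. Alternatives varied the pseudocount, filter, scaling, depth, marker rules, cells and plates.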

Additional observations from a re-analysis of the deposited data

Results flagged for a closer look

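The single myeloid-labelled cell outside the CD45-positive plates, from the losartan+anti-PD1 plate sorted for CD3, entered no comparison of the report, and its values are in TPM. It had 4 of the 6 label markers above 0, with Kmo at 432, Naaa at 355, Ifi205 at 555 and Plbd1 at 463 TPM, and Flt3 and Itgae at 0. Its Cd209a was 4343 TPM and H2-Aa 5775 TPM, while Xcr1, Clec9a, Ccr7, Fscn1 and Siglech were at 0. Cd3e, the gene of a CD3 chain, was at 101 TPM, and 3368 genes were above 0.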

How the results depend on the processing

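Of 67 gene ratios named, all at least 1 in size, 690 of 698 alternative values kept their sign and 671 were still at least 1 in size. The 8 reversals were S100a9 (0.49), S100a8 (0.55) and Hdc (0.27) against microglia of cluster 6 only, Siglech over microglia (range over plates left out -3.22 to 1.27, 1.27 without losartan), and, in the division above 0, Gm14446 (-2.18) and I830012O16Rik (-0.65) with type 1 by Clec9a alone, and the same genes (-2.73 and -0.13) with type 1 above 10 TP100K. The type 1 share moved to 16.4% (limit 10 TP100K), 30.1% (limit 1), 35.6% (thinned), 19.2% (both markers), 11% (both above 10) and 24.7% (largest share of the full list), the type 2 share to 9.59% (both), 6.85% (both above 10) and 45.2% (full list), the mature share to 23.3% (either marker) and 20.5% (full list), and the plasmacytoid share to 4.11% (with Tcf4, both above 10). Leaving out each plate gave 68.8% to 71%, 53.8% to 70.8%, 4.84% (without losartan+anti-PD1) to 15.4% and 10% to 17.9% for type 1, type 2, mature and plasmacytoid. The numbers of genes past the fold depended on the settings. With a pseudocount of 10 TP100K they were 114 higher and 173 lower for myeloid over microglia, 3 and 1 for type 1 above 0, 30 and 73 for type 1 above 10, 21 and 8 for losartan over control, and 323 and 340 for mature cells. With 0.1 TP100K they were 485 and 213 for type 1 above 0, 708 and 1250 for type 1 above 10, and 1414 and 459 for losartan over control. Scaling to the 75th percentile gave 1064 and 280 for myeloid over microglia, where it moved the median of all genes to 0.46, and 726 higher for type 1 above 10, and it moved the median to -0.62 for mature cells. Without the filter, 1247 were lower for type 1 above 10 and 459 for losartan over control. Type 1 by Xcr1 alone gave 166 higher, by Clec9a alone 165 and 370, and above 10 TP100K 452 and 822, and losartan over control in type 1 cells only gave 1291 and 393. Leaving out each plate gave 278 to 633 higher and 145 to 537 lower for type 1 above 0, and 467 to 933 and 868 to 1391 for type 1 above 10. The mature comparison rests on 6 cells and each treatment on 1 plate.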
